A study of Rattus norvegicus with 18 samples.

Results

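The response of rat liver cells to carbon tetrachloride was read from 6 libraries of 18 in the series: 3 of hepatocytes exposed to CCl4 and 3 of hepatocytes given vehicle alone, labelled Control. All 6 came from primary rat hepatocytes kept for 6 h in medium with 0.1% DMSO, and members were chosen by the treatment label alone. The other libraries came from cells exposed to acetaminophen (APAP) at 3 mM, TCDD at 1 nM or trichloroethylene (TCE) at 1 mM, with 4 libraries each. The labels give no dose for CCl4, and the protocol that describes exposures with little cell death names the other compounds only. Strain, sex and age of the animals are not stated in the labels, nor is the source of each replicate (animal or culture), so p-values cover only the spread among these libraries and that spread may be technical.

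Carbon tetrachloride is a chlorinated solvent and a classical agent for producing liver injury in rodents. The solvent itself is not very reactive. In hepatocytes the cytochrome P450 enzyme CYP2E1 converts it to a trichloromethyl radical, which starts lipid peroxidation, binds covalently to cell components and damages the endoplasmic reticulum. Damage in the intact liver is centred on the zone around the central veins, where that enzyme is most abundant. That is textbook background, and none of it was read from these libraries.

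The files identify RNA by Ensembl transcript identifiers without gene names, and 0 of these could be matched to the rat gene table used for names. CYP2E1, albumin, other hepatocyte markers, markers of other liver cells and stress pathways were therefore not analysed here, and the labelled cell type was not checked. Transcripts named by a fixed rule are given by identifier, and others by their length in bases, which does not by itself identify a transcript. Expression is given as CPM (counts relative to the library total, with TMM scaling) to compare libraries, and as TPM, which also allows for transcript length, to compare transcripts. Fewer cells of a type and less RNA per cell cannot be told apart in such bulk samples.

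Total estimated counts ranged from 10373695 to 10640452 in the CCl4 libraries and from 10571015 to 11479466 in the Control libraries, with 19151 to 19718 transcripts detected per library. No pair of replicates agreed within sampling noise, so no library was counted as a copy of another. Control replicate 3 stood apart from the other Control libraries. Across transcripts, which are not independent, its log2 CPM values correlated with those of the CCl4 libraries at 0.9553 to 0.9604 and with those of the other Control libraries at 0.952 to 0.959, whereas Control replicates 1 and 2 correlated at 0.9653 with each other and at 0.9401 to 0.9522 with the CCl4 libraries. On the first principal component, which held 32.8% of the variance, the CCl4 libraries lay at -22.3, -37.0 and -21.3, Control replicates 1 and 2 at 35.5 and 46.4, and Control replicate 3 at -1.34. Main results are also given without that library.

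Most measured transcripts did not pass the test for a CCl4 effect at 6 h. Of 30897 transcripts listed, 14932 had enough counts to test, and 433 (2.9%) differed between CCl4 and Control at an adjusted p under 0.05 in edgeR's quasi-likelihood test. Of these, 255 (1.71% of those tested) rose and 178 (1.19%) fell, with median log2 fold changes of 0.53 and -0.53. Of the 433, 51 changed beyond 2-fold, 32 upwards and 19 downwards, and 512 tested transcripts (3.43%) lay beyond 2-fold whether or not they passed. All 433 had CCl4 and Control libraries that did not overlap, a property shared by 4202 (28.1%) of the tested transcripts, 2202 (14.7%) of them higher and 2000 (13.4%) lower with CCl4. The number depended on Control replicate 3: without it, 3149 transcripts (20.6% of 15305 tested) passed, 44.5% of them higher, and all 433 were among them. Leaving out Control replicate 2 gave 107 calls (0.702%) and leaving out Control replicate 1 gave 27 (0.177%). Leaving out CCl4 replicates 1, 2 and 3 gave 29 (0.189%), 27 (0.176%) and 35 (0.229%).

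The precision of the comparison limits what the remaining transcripts show. The median standard error of a log2 fold change was 0.15, and the 95% interval of the difference lay within 1 log2 unit of no change for 11118 transcripts (74.5%). It lay wholly beyond 1 log2 unit for 32. Before adjustment, 3393 transcripts (22.7%) had a p under 0.05.

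**Figure D1:**
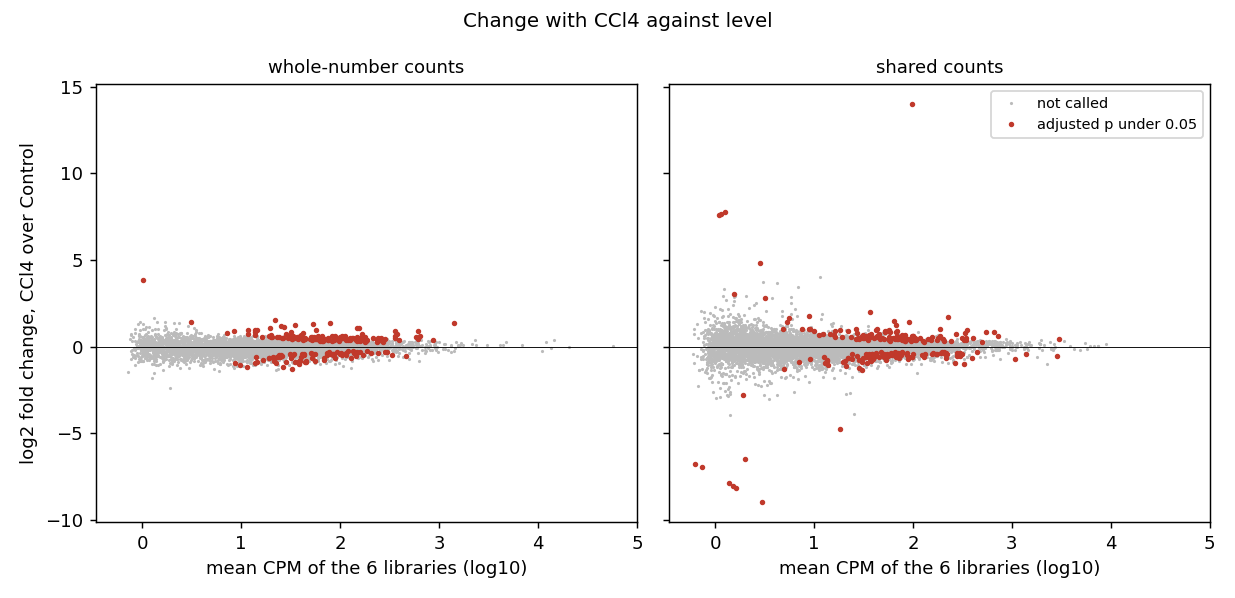
Log2 fold change of CCl4 against Control (vertical axis) for each tested transcript against its mean level (horizontal axis, log scale), with transcripts past an adjusted p of 0.05 in edgeR coloured. Most of the 433 coloured points lie within 1 log2 unit of no change.

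The most uniform response was a set of 21 transcripts that rose with CCl4 with all 6 libraries and in each of the 6 fits that left out 1 library. A single transcript fell under the same condition. This set was picked out after its values were seen, so its count and its direction are a description. Its members rose by 1.78-fold to 4.06-fold, 13 of them more than 2-fold, from Control means of 11.2 to 804 CPM. Of the 21, 9 had whole-number estimated counts in all 6 libraries, so no fraction of a read was shared out to them, although a whole estimate can also arise where all ambiguous reads go to 1 transcript. Estimates that were not whole are called shared counts.

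Within this set, a transcript of 925 bases rose most. It stood at 58.5, 64.2 and 56.2 CPM in CCl4 replicates 1 to 3 and at 13.2, 16.6 and 14.2 CPM in Control replicates 1 to 3. The lowest CCl4 library was thus well above the highest Control library, and the log2 fold change was 2.02 ± 0.11 (SE) with an adjusted p of 0.000495 in edgeR. A transcript of 2686 bases reached 294, 363 and 383 CPM with CCl4 against 123, 101 and 89.4 CPM in Control, a log2 fold change of 1.73 ± 0.15 (SE). A transcript of 953 bases stood at 82.3, 97.6 and 105 CPM against 36.1, 33.3 and 31.9 CPM. In both, CCl4 replicate 1 was the lowest exposed library and Control replicate 1 the highest unexposed one, with a wide gap between the groups. A transcript of 2955 bases stood at 132, 140 and 131 CPM with CCl4 and at 46.4, 50.4 and 51.8 CPM in Control. These 4 transcripts include counts shared with similar transcripts.

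Among the members with whole-number counts, the most abundant was a transcript of 2562 bases, ranked 325 by TPM in Control. It rose from 795, 751 and 866 CPM in Control to 1971, 2137 and 1996 CPM with CCl4, a log2 fold change of 1.34 ± 0.07 (SE) with an adjusted p of 0.000495 in edgeR. Its mean level went from 419 to 993 TPM. Every CCl4 library was above every Control library by far more than replicates differed. A transcript of 3186 bases gave 33.6, 32.8 and 30.7 CPM with CCl4 and 11.4, 11.1 and 11.1 CPM in Control, the tightest Control group of the set relative to its level. A transcript of 1935 bases gave 109, 115 and 114 CPM against 42.0, 45.0 and 47.0 CPM. A transcript of 1412 bases gave 73.3, 82.3 and 72.8 CPM against 25.7, 32.8 and 34.7 CPM. In these last 3, replicates within a group were close and the groups were far apart, with log2 fold changes of 1.53, 1.33 and 1.29.

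The other 5 members with whole-number counts rose by less. The transcript of 729 bases stood at 48.9, 49.3 and 49.7 CPM with CCl4 and at 20.7, 18.8 and 23.0 CPM in Control. The transcript of 1926 bases stood at 206, 206 and 201 CPM against 85.8, 94.6 and 105 CPM. The transcript of 844 bases stood at 212, 221 and 205 CPM against 97.5, 91.3 and 113 CPM. Control replicate 3 was the highest Control library in all 3, still far below the CCl4 libraries. The transcript of 1223 bases stood at 78.6, 76.9 and 71.4 CPM against 41.1, 34.9 and 40.8 CPM. The transcript of 1791 bases stood at 802, 799 and 778 CPM against 406, 420 and 437 CPM, a log2 fold change of 0.91 ± 0.06 (SE) with an adjusted p of 0.000788 in edgeR. The last had the smallest standard error of the set.

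The remaining members carried shared counts and rose by log2 fold changes of 0.83 to 1.26. The most abundant of them had 640 bases and stood at 711, 709 and 683 CPM with CCl4 and at 379, 362 and 416 CPM in Control. The longest had 8894 bases and stood at 62.1, 58.8 and 54.8 CPM against 27.0, 27.4 and 31.4 CPM. The set as a whole ran from 640 to 8894 bases with a median of 1926, and 9 of its 21 members were longer than 2000 bases. Among tested transcripts the median length was 2179 bases, with 55.6% over 2000 bases. In Control, 4 of the 21 belonged to the 1000 most abundant transcripts.

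**Figure D2:**
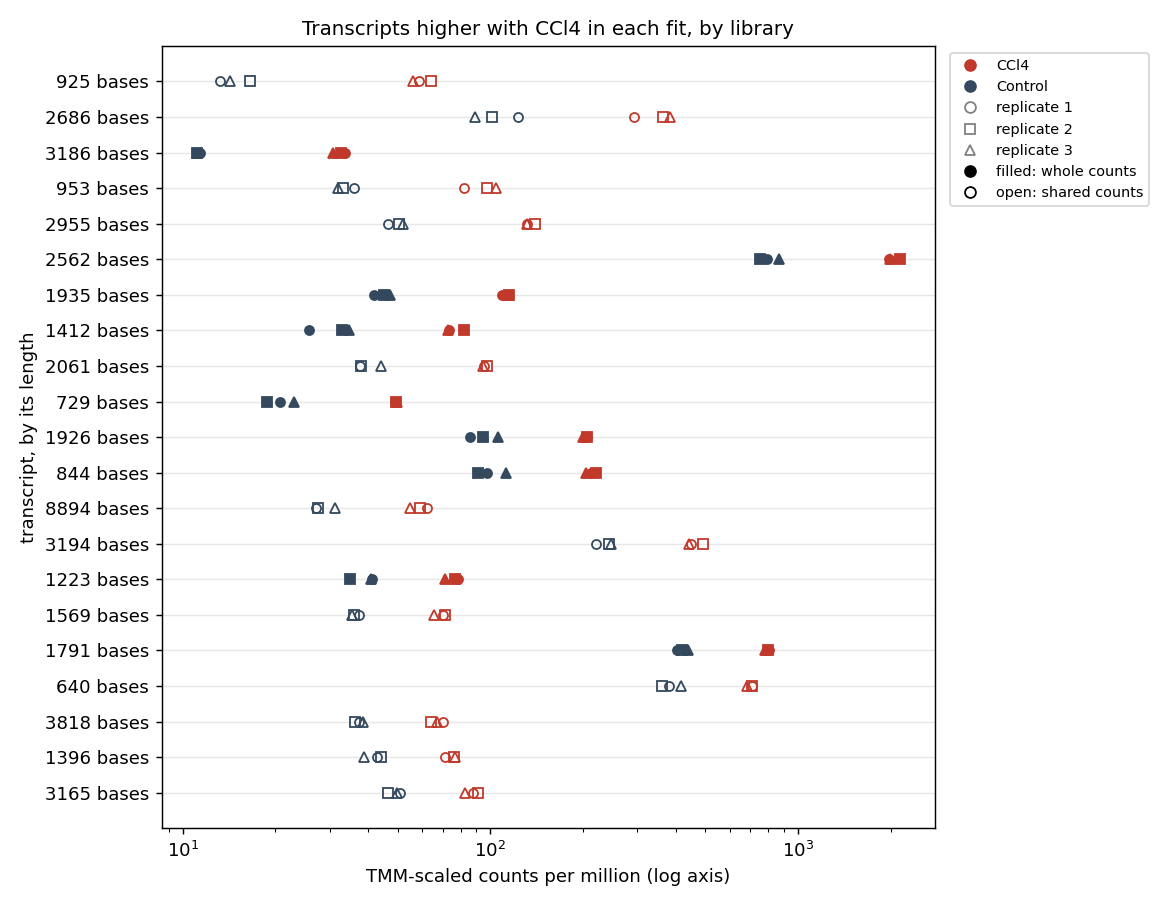
TMM-scaled CPM (horizontal log axis) in each of the 6 libraries for the 21 transcripts, named by length, that rose with CCl4 with all libraries and without each library in turn. Marker shape gives the replicate and filled markers are transcripts with whole-number counts. In every row the CCl4 libraries lie to the right of all Control libraries, as they do for 14.7% of all tested transcripts. The rows were chosen by their calls, and all 433 calls had no overlap between the groups.

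Levels of the 5 members with the largest rises in the other exposures are given side by side, as CPM of total counts and without a test, since all exposures share the Control libraries and the transcripts were chosen for their response to CCl4. The 925-base transcript stood at 51.4 to 65.4 CPM with APAP, 12.9 to 32.3 CPM with TCDD and 12.9 to 21.3 CPM with TCE, so that the APAP range overlapped the CCl4 values. The 2686-base transcript stood at 94.3 to 327 CPM with APAP, 243 to 627 CPM with TCDD and 203 to 345 CPM with TCE, and each range overlapped the CCl4 values. The 953-base transcript stood at 33.5 to 89.7 CPM with APAP, 74.0 to 120 CPM with TCDD and 64.7 to 86.5 CPM with TCE, again overlapping the CCl4 values. For the other two of the 5, every library of the other exposures was below the CCl4 values. The 3186-base transcript stood at 4.98 to 6.57 CPM with APAP, 9.33 to 12.9 CPM with TCDD and 10.5 to 12.3 CPM with TCE. The 2955-base transcript stood at 20.5 to 23.3 CPM with APAP, 32.5 to 70.5 CPM with TCDD and 53.2 to 80.3 CPM with TCE. Among these 5, all APAP libraries thus lay near the CCl4 level for the 925-base transcript only. For the 2686-base and 953-base transcripts the lowest APAP value lay within the Control values, which were 89.4 to 123 and 31.9 to 36.1 CPM. For the 3186-base and 2955-base transcripts APAP lay below all Control values.

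Of the 178 transcripts that fell, 1 passed in all 6 fits without a library, against 21 of the 255 that rose, and that transcript, which carries shared counts, is ENSRNOT00000000497.7. Among those with whole-number counts, the 5 with the largest falls were taken as examples after their values were seen. A transcript of 3569 bases fell by 1.32 on the log2 scale, from 50.8, 57.0 and 30.7 CPM in Control to 17.6, 16.5 and 21.5 CPM with CCl4, with an adjusted p of 0.0465 in edgeR. Control replicate 3 lay closer to the CCl4 libraries than to the other Control libraries, and the call held in only 1 of the 6 fits. A transcript of 2235 bases fell from 16.6, 17.2 and 14.3 CPM to 7.46, 7.33 and 6.48 CPM and passed in 2 of the 6 fits. A transcript of 4644 bases fell from 51.5, 46.6 and 53.8 CPM to 28.6, 22.3 and 25.3 CPM, and passed in 3. In the last 2 transcripts, Control replicate 3 lay nearer the other Control libraries than the CCl4 libraries. The transcripts of 5354 and 4269 bases fell by 1.18 and 1.06 on the log2 scale, and each passed in 1 fit.

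Across the 433 calls, 332 passed in only 1 of the 6 fits without a library, the one without Control replicate 3. A further 66 passed in 2 of the fits, 13 in 3 to 5, and 22 in all 6.

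**Figure D3:**
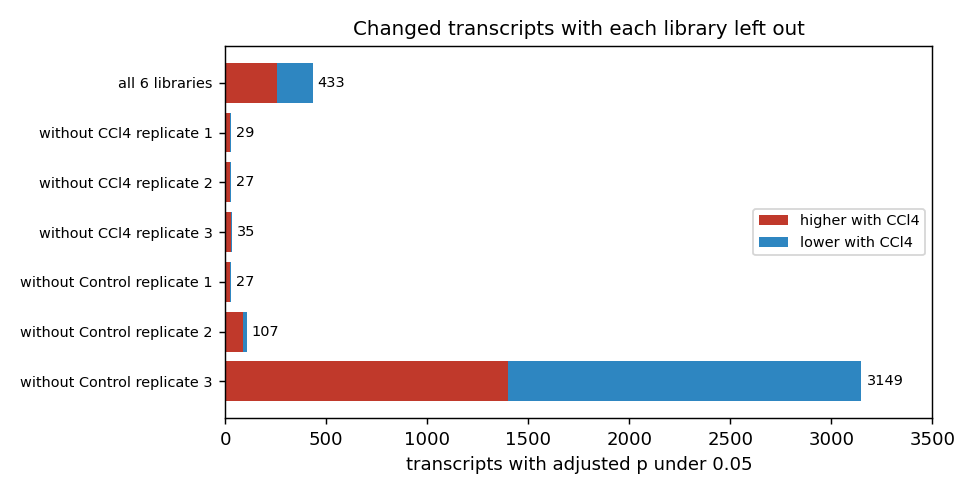
Number of transcripts past an adjusted p of 0.05 in edgeR, higher and lower with CCl4, with all 6 libraries and with each library left out in turn. The count is 433 with all libraries, 3149 without Control replicate 3 and 27 to 107 without any other library.

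The 4 transcripts named for the largest fold changes all carried shared counts. ENSRNOT00000054976.4, of 1128 bases, was at 90.5, 232 and 261 CPM in the CCl4 libraries (195 ± 91.3, SD, n = 3) and at 0 in the 3 Control libraries after rounding (estimated counts of 0, 0 and 0.13). It was at least 712-fold higher with CCl4, against a floor of 3 counts in each Control library, with an adjusted p of 0.0233 in edgeR. That bound covers counting error only and not the assignment of shared counts. Replicates of each other exposure lay both near 0 and far above it, as described below. ENSRNOT00000054976.4 did not pass in 4 of the 6 fits without a library, with adjusted p of 0.0705 to 0.108 in edgeR. ENSRNOT00000091468.1, of 1646 bases, was at 4.94, 5.60 and 5.91 CPM with CCl4 and at 0.174, 0.371 and 0 CPM in Control, a log2 fold change of 4.82 ± 0.60 (SE) with an adjusted p of 0.0128 in edgeR. It did not pass without any one of the CCl4 replicates or without Control replicate 1, with adjusted p of 0.0894 to 0.107.

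In the other direction, ENSRNOT00000000497.7, of 1666 bases, was at 0 in all CCl4 libraries and at 5.73, 6.30 and 5.74 CPM in Control. It was at least 20.6-fold lower with CCl4, against the same floor in each CCl4 library, with an adjusted p of 0.00405 in edgeR. That bound covers counting error only and not the assignment of shared counts, which this transcript traded with ENSRNOT00000091468.1, as described below. ENSRNOT00000027268.6, of 3894 bases, was at 1.55, 0 and 2.38 CPM with CCl4 against 42.1, 35.6 and 29.5 CPM in Control, a log2 fold change of -4.75 ± 0.60 (SE) with an adjusted p of 0.0219 in edgeR. It did not pass in 4 of the 6 fits without a library, with adjusted p of 0.0744 to 0.113.

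Their estimated counts in the other exposures were uneven within groups, though for ENSRNOT00000027268.6 mainly with TCDD. ENSRNOT00000054976.4 had estimated counts of 0, 1.1, 1154 and 1446 in the 4 APAP libraries. It had 330.3, 1367, 56.3 and 0 in the TCDD libraries and 1608, 2882, 850.2 and 0 in the TCE libraries. The transcript was thus both absent and abundant among replicates of each of these exposures. ENSRNOT00000091468.1 and ENSRNOT00000000497.7 traded counts: the sum of both was 50.6, 58.4 and 61.9 with CCl4 and 68.7, 71.3 and 60.9 in Control, but nearly all of it was assigned to the former with CCl4 and to the latter in Control. In the APAP, TCDD and TCE groups the assignment went to one in some replicates and to the other in others. ENSRNOT00000027268.6 had estimated counts of 128.4 to 167.9 with APAP, 117.3 to 210.8 with TCE, and 0.03 to 381.9 with TCDD.

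**Figure D4:**
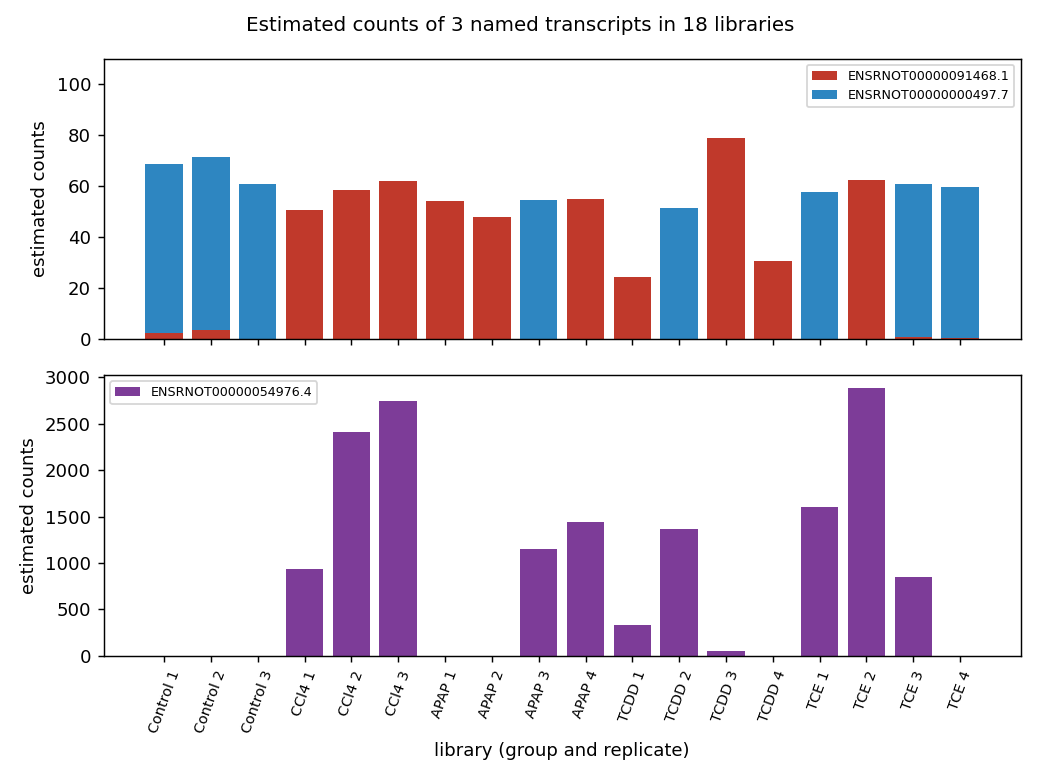
Estimated counts of named transcripts in each of the 18 libraries, by group. ENSRNOT00000054976.4 lies at 934 to 2740 in CCl4 and at about 0 in Control, and in the APAP, TCDD and TCE groups replicates of 1 exposure lie at both levels.

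ENSRNOT00000054976.4 and ENSRNOT00000000497.7 belonged to a group of 20 transcripts with rounded counts of 0 throughout one treatment. At 0 in every Control library and with at least 5 counts in each CCl4 library were 7 transcripts, of which 4 passed the test. At 0 in every CCl4 library and with at least 5 counts in each Control library were 13, of which 6 passed. Over all 14932 tested transcripts 2.9% passed, but the 20 were chosen for complete separation of the groups, so their calls are a description only. None of the 20 had whole-number counts. All 7 of the first kind and 12 of the 13 of the other kind were at 0 in some replicates and at 5 or more counts in others within at least 1 of the other exposures. The same share over all transcripts is not given here, so this describes the 20 only.

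Shared counts and whole-number counts gave different sizes of change, but these kinds of transcript also differed in level. Median Control TPM was 15.0 for those with whole-number counts and 7.87 for those with shared counts. The part of level in the difference was not tested. Of the 6257 tested transcripts with whole-number counts (41.9%), 77 (1.23%) changed beyond 2-fold in either direction whether or not they passed the test, and of the 8675 with shared counts, 435 (5.01%) did so. The median SD of log2(CPM + 1) over the Control libraries was 0.14 in the former and 0.196 in the latter. Calls were made for 211 whole-number transcripts (3.37%; 132 higher and 79 lower) and for 222 with shared counts (2.56%; 123 higher and 99 lower). Fitted alone, the whole-number transcripts gave 715 calls (11.4%), 49.8% of them higher.

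Short transcripts tended to be higher with CCl4 and long ones lower. The median log2 fold change was 0.17 for 450 transcripts of up to 500 bases, 0.15 for 1399 over 500 and up to 1000 bases, 0.07 for 4787 over 1000 and up to 2000 bases, -0.04 for 5623 over 2000 and up to 4000 bases, and -0.18 for 2673 over 4000 bases. Over all tested transcripts it was -0.003. Calls followed the same order: 11 higher and 0 lower in the shortest class (2.44% of it called), and 18 higher and 78 lower in the longest (3.59%), against 2.9% called over all tested transcripts. In the shortest class, 98 higher and 12 lower transcripts had an unadjusted p under 0.05 in edgeR, and 2 lower ones passed in DESeq2, 9 in limma voom and 3 in limma on the TPM scale. Without Control replicate 3, the medians from the shortest to the longest class were 0.26, 0.20, 0.10, -0.05 and -0.24, and 4 transcripts of the shortest class passed as lower in edgeR. Of the 178 that fell, 147 (82.6%) were longer than 2000 bases, against 112 (43.9%) of the 255 that rose.

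The order was shared by Control replicate 3. Against the Control mean, the median of transcripts over 4000 bases was -0.16, -0.19 and -0.13 log2 units in CCl4 replicates 1 to 3, and 0.05, 0.11 and -0.13 in Control replicates 1 to 3. For transcripts of up to 500 bases the values were 0.14, 0.18 and 0.17 with CCl4 and -0.02, -0.10 and 0.13 in Control. Control replicate 3 thus lay with the CCl4 libraries at both ends. The difference between length and effective length of long transcripts, which reflects the fragment length kallisto used, was 185.6, 183.6 and 179.8 bases in the CCl4 libraries and 178.9, 176.6 and 186.2 bases in the Control libraries. It was largest in Control replicate 3, and its part in the length pattern was not tested. With each library's length trend removed, 437 transcripts (2.93%) passed, of which 334 were among the 433. All 21 transcripts of the uniform set, which were chosen by their calls in these same libraries, passed as well. The share of higher calls then moved from 58.9% to 64.3%.

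**Figure D5:**
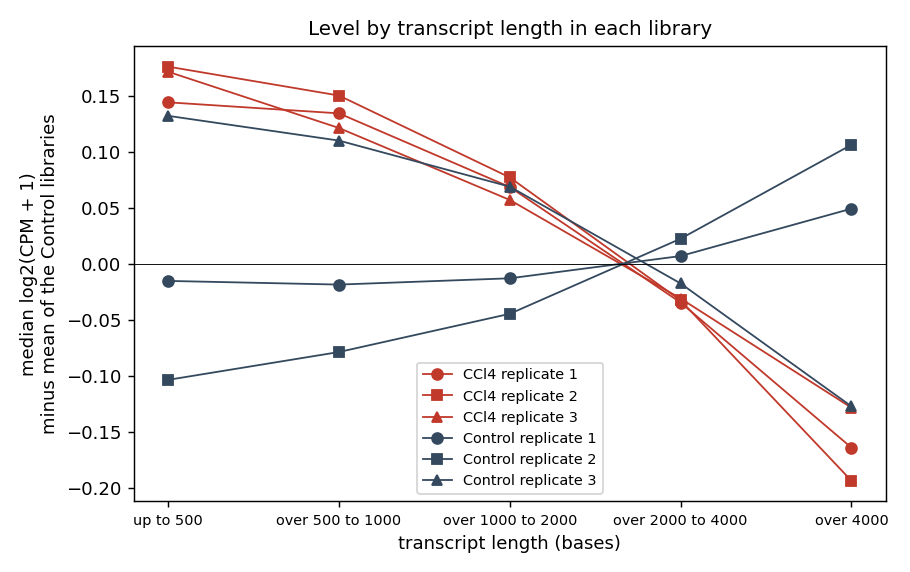
Median log2 difference of each library from the Control mean (vertical axis) in 5 classes of transcript length (horizontal axis), 1 line per library. The CCl4 libraries run from 0.14 to 0.18 in the shortest class to between -0.19 and -0.13 in the longest, and Control replicate 3 runs with them, from 0.13 to -0.13.

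Shares of total counts by length class could not pass the test available. Transcripts over 4000 bases held 13.7%, 13.0% and 14.1% of counts with CCl4 and 16.6%, 17.5% and 14.0% in Control (exact two-sided permutation p = 0.2, adjusted p = 0.36 over 9 classes). Those over 1000 and up to 2000 bases held 37.2% ± 0.07 with CCl4 and 35.7% ± 1.16 in Control (SD, n = 3 each; exact permutation p = 0.1, adjusted p = 0.3). With 3 libraries against 3 the smallest p is 0.1.

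The most abundant transcripts of the hepatocytes did not pass the test. The highest in Control, ENSRNOT00000003921.4, of 2069 bases and with whole-number counts, stood at 36346, 35129 and 36030 TPM with CCl4 and at 35792, 38854 and 36453 TPM in Control. The groups overlapped. Among the 10 highest by Control TPM, which include 2 pairs with identical values and so 8 distinct sets of values, 0 passed in edgeR (1 had an unadjusted p under 0.05), 1 passed in DESeq2, and 3 passed in limma voom. Their log2 fold changes ran from -0.06 to 0.38. Without Control replicate 3, 2 of the 10 passed in edgeR. Of ranks 11 to 100, 2 rose and 2 fell (4.44% of 90). Of ranks over 100 and up to 1000, 44 rose and 13 fell, which is 6.33% of the 900 tested, against 209 and 163 (2.67%) of the 13932 below them. The 10 highest held 13.9%, 15.3% and 13.2% of counts with CCl4 and 13.6%, 12.9% and 14.1% in Control (exact permutation p = 0.5, adjusted p = 0.5).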

How the data were processed

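RNA from primary rat hepatocytes exposed to CCl4 (3 libraries) or vehicle (3) for 6 h was compared. The submitters' processing notes name kallisto 0.43. Transcript annotation, genome build and read layout: not given in the sources used here. Per library, the authors deposited estimated counts, which share out reads that match several transcripts and need not be whole, and TPM, which the authors' tables scale by effective length to a fixed sum per library.

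Estimated counts were rounded, filtered with filterByExpr (99.8% of counts kept) and fitted with TMM factors and edgeR's robust quasi-likelihood test (edgeR 4.0.16, R 4.3.3), with Benjamini-Hochberg adjustment over 14932 transcripts and a threshold of 0.05. The SE of a log2 fold change is its size over the square root of the F statistic. Counts were called whole within 1e-06. TPM was used for levels. Exact two-sided permutation tests compared shares (scipy 1.17.1). DESeq2 1.42.0, limma 3.58.1 and other filters, scalings and library sets were alternatives. Scripts were tested on simulated data. Total estimated counts were 10373695 to 11479466 per library, and floors cover counting error only.

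Transcripts were named if past the threshold, at 5 CPM or more on average in either group and without overlap between groups: the 2 largest log2 fold changes per direction, and the most abundant in Control. Prepared gene lists (members and lists were chosen with earlier results of these data known) and cell type markers could not be used, because identifiers were not paired with names. Of the transcripts listed, 2753 in 400 sets had identical counts in all 6 libraries, 104 of which were tested; their values are uncertain. Libraries were not paired by the replicate numbers in the titles, which the labels do not say mark a shared source. Deviations of same-numbered libraries correlated at -0.0322, -0.0761 and -0.102, which cannot decide whether libraries were paired.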

Additional observations from a re-analysis of the deposited data

Results flagged for a closer look

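Signal of 2 named transcripts was seen in libraries outside the comparison, above the level in every Control library. ENSRNOT00000054976.4 exceeded every Control library in 9 of the 12 libraries exposed to APAP, TCDD or TCE, and was highest in TCE replicate 2, at 271 CPM of total counts. ENSRNOT00000091468.1 exceeded every Control library in 7 of the 12, and was highest in TCDD replicate 3, at 7.0 CPM. Groups of 3 libraries were too small for the check for single outlying samples.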

How the results depend on the processing

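The count of 433 calls (58.9% higher) stayed within 1.5 times under 7 alternatives: 389 with no low-count filter, 440 at 1 CPM in 3 libraries, 436 with DESeq2 size factors, 432 with total-count scaling, 437 with identical transcripts collapsed, 437 with the length trend removed (64.3% higher) and, chosen after seeing the data, 413 without transcripts at 0 in a whole group. It was 287 with all 18 libraries in the fit and 670 (54.0% higher) with TCDD replicate 1 left out of that fit. DESeq2 gave 1260 (43.6% higher), limma voom with quality weights 3714 (47.5%), and limma on log2(TPM + 1) 175. An adjusted p under 0.01 gave 48 (87.5%) and under 0.1 gave 1244 (50.7%). Whole-number transcripts alone gave 715 (49.8%), and a test against a fold of 1.2, chosen after seeing the data, 59 (78.0%). Without 1 library the count was 27 to 3149 and the share higher 44.5% to 86.2%. The cause of these differences was not tested. The 21 transcripts of the uniform set passed in all of these fits that tested them, except that 16 did with all 18 libraries. Passing in the fits without 1 library and at the threshold of 0.1 was fixed by how the set was chosen. The other fits reused the same libraries, so passing them is no independent check.

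With title numbers as a replicate block, 12 transcripts passed, 100% higher, 11 of them among the 21. With the numbers in the names of the deposited tables as the block, 1 passed, 100% higher, and 0 of the 21 did in edgeR. Before adjustment, 863 of the 14932 transcripts had a p under 0.05 in that edgeR fit. All 21 were among them, but they had been chosen for their calls in these same libraries. The pairing has no support in the labels, and no CCl4 library correlated best with the Control library of its own title number (all pairs -0.102 to 0.0772). With so few libraries per group, these correlations cannot decide whether libraries were paired.

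Of the named transcripts, ENSRNOT00000054976.4 passed in 13 of 22 alternatives (adjusted p 1.65e-20 to 0.151 over edgeR, DESeq2 and limma), ENSRNOT00000091468.1 in 13 of 22 (0.000958 to 0.596), ENSRNOT00000000497.7 in 17 of 21 (0.000181 to 0.205) and ENSRNOT00000027268.6 in 15 of 23 (0.00295 to 0.164).

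Removing the length trend took the length-class medians, from shortest to longest, to -0.01, 0.02, 0.02, 0.01 and 0.02, by its construction. On log2(TPM + 1) the first 4 were 0.08, 0.05, -0.02 and -0.11. The class over 2000 and up to 4000 bases was at -0.06 with total counts, -0.03 without a filter and -0.06 with whole-number transcripts. The shortest class ranged from 0.13 to 0.26 without 1 library, the highest without Control replicate 3. As a share of TPM, the class over 1000 and up to 2000 bases differed by -0.547 percentage points (CCl4 minus Control) in place of 1.47, and the class over 4000 bases by -0.667 in place of -2.42. Sums per gene were not run, because identifiers were not paired with names.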
